A study of Danio rerio with 36 samples.

Results

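ATP-binding cassette (ABC) genes were examined in ribosome-bound RNA from endothelial cells of adult zebrafish. The members are all genes of the count table whose symbol, ignoring case, consists of abc, a subfamily letter from a to g and a number, with abcc2 left out, which gave 51 of 32520 genes. Subfamily A has 9 members, B has 10, C has 13, D has 5, E has 1, F has 4 and G has 9. The table gives Ensembl IDs, and the symbols were added from a separate list of gene names, so some are in capitals (ABCB4) and 6 symbols are each carried by 2 members, which are told apart here by their IDs.

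ABC proteins bind and hydrolyse ATP, and most use it to move lipids, drugs, peptides, metal complexes or ions across a membrane. In endothelium, above all at the blood-brain barrier of mammals, members of subfamilies B, C and G are known for pumping drugs and toxins back into the blood, and members of A and G for exporting cholesterol. Subfamilies E and F have no membrane part and act on ribosomes.

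All fish carried Tg(kdrl:egfp-2a-rpl10a3xHA)y530, a transgene in which the kdrl promoter, active in vascular endothelium, drives EGFP and a ribosomal protein with an HA tag. In each replicate, organs of several adult fish were pooled and lysed, part of the lysate gave the tissue input, and tagged ribosomes were captured from it with an antibody against HA to give the endothelial pulldown (IP). Skin, muscle and whole fish were used here, each with 3 input and 3 pulldown libraries, 18 in all; those of the remaining organs were not used here. Input and pulldown both came from transgenic fish, no pulldown from untagged fish was among these libraries, and the adults' exact age is not given in the labels. In such bulk libraries, fewer cells of a type and less RNA per cell cannot be told apart. The pulldown holds ribosome-bound RNA and the input RNA of the whole lysate. Their ratio can therefore also differ with how much of a transcript is on ribosomes, which these libraries do not separate.

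Libraries held between 9202302 counts (a skin pulldown) and 26255588 counts (a muscle input). The whole fish pulldowns stood apart: a single gene took 53.8 to 76.2% of their counts, against 6.50 to 27.6% in the other libraries, and the biological coefficient of variation was 0.849, against 0.273 in skin and 0.327 in muscle. Of 7 endothelial markers sought, the symbols kdrl, cdh5, TIE1 and FLI1 were found; all 4 were enriched in the skin and muscle pulldowns and 3 in the whole fish pulldown, where FLI1 was at a log2 fold change of 1.89 ± 0.72. The summed level of these markers was 553 to 745 CPM (counts scaled to a common library size) in the skin pulldown against 28.8 to 40.1 in its input, 1918 to 3191 against 43.5 to 59.9 in muscle, and 179 to 298 against 13.6 to 21.7 in the whole fish. Each value of CPM below is scaled by TMM within a tissue, except in the comparison of pulldowns, where the 9 pulldown libraries are scaled together. Levels are thus compared between fractions of 1 tissue, or between those pulldowns, and not between genes, which differ in length. Library preparation kept no strand information, so reads of genes that overlap on opposite strands are not separated, and close copies such as abcg2a to abcg2d or abcc6b.1 and abcc6b.2 may share reads.

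To ask which ABC genes are enriched in endothelial ribosomes, each pulldown was compared with the input of the same tissue. Enrichment and depletion were tested one-sided with edgeR's quasi-likelihood test, p-values were adjusted by Benjamini-Hochberg over all genes tested, and a gene was called at an adjusted p under 0.05 with a log2 fold change of at least 1.2 or at most -1.2. All adjusted p-values below are from edgeR, log2 fold changes are given ± SE, and n = 3 libraries per fraction. Of the 51 members, 47 had enough counts to be tested in at least 1 tissue and 32 in all 3. Enrichment was called for 17 members in at least 1 tissue, depletion for 8, and no member was called enriched in 1 tissue and depleted in another. The other 22 tested members were called in no tissue. Matching shares of all genes over the 3 tissues together were not computed, so these counts describe the members only. Shares within each tissue follow.

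In skin, 15 of 41 tested members (36.6%) were enriched, where 21.5% of all 17153 tested genes were, and 0 were depleted, where 18.2% of all genes were. The members had a median log2 fold change of 0.98 and all tested genes one of 0.04. In muscle, 6 of 35 (17.1%) were enriched against 22.8% of 14849 genes, and 5 (14.3%) were depleted against 21.0%; the medians were 0.44 and 0.07. For the whole fish, 4 of 40 (10.0%) were enriched against 11.3% of 16923 genes, and 3 (7.50%) were depleted against 15.5%; the medians were -0.14 and -0.09. The shares of enriched members in muscle and whole fish were thus at or below those of all genes, and the share in skin was above it. In skin, edgeR put 3 members below their input at an unadjusted one-sided p under 0.05 (34.5% of all genes), none of them past the minimum fold change. DESeq2 also called 0 members depleted (18.9% of all genes). Without the minimum fold change 1 was (28.6% of all genes), ABCD3 ENSDARG00000104085, at -1.03 ± 0.22. With libraries scaled by their size alone, the median of all genes was 0.87 (skin), 1.79 (muscle) and -1.01 (whole fish). There were then 30, 27 and 0 enriched members, beside 41.4, 62.3 and 3.48% of all genes. Depleted were 0, 0 and 7 members, beside 4.56, 3.27 and 23.9%. The counts are thus relative to TMM, which takes most genes to be unchanged.

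**Figure D1:**
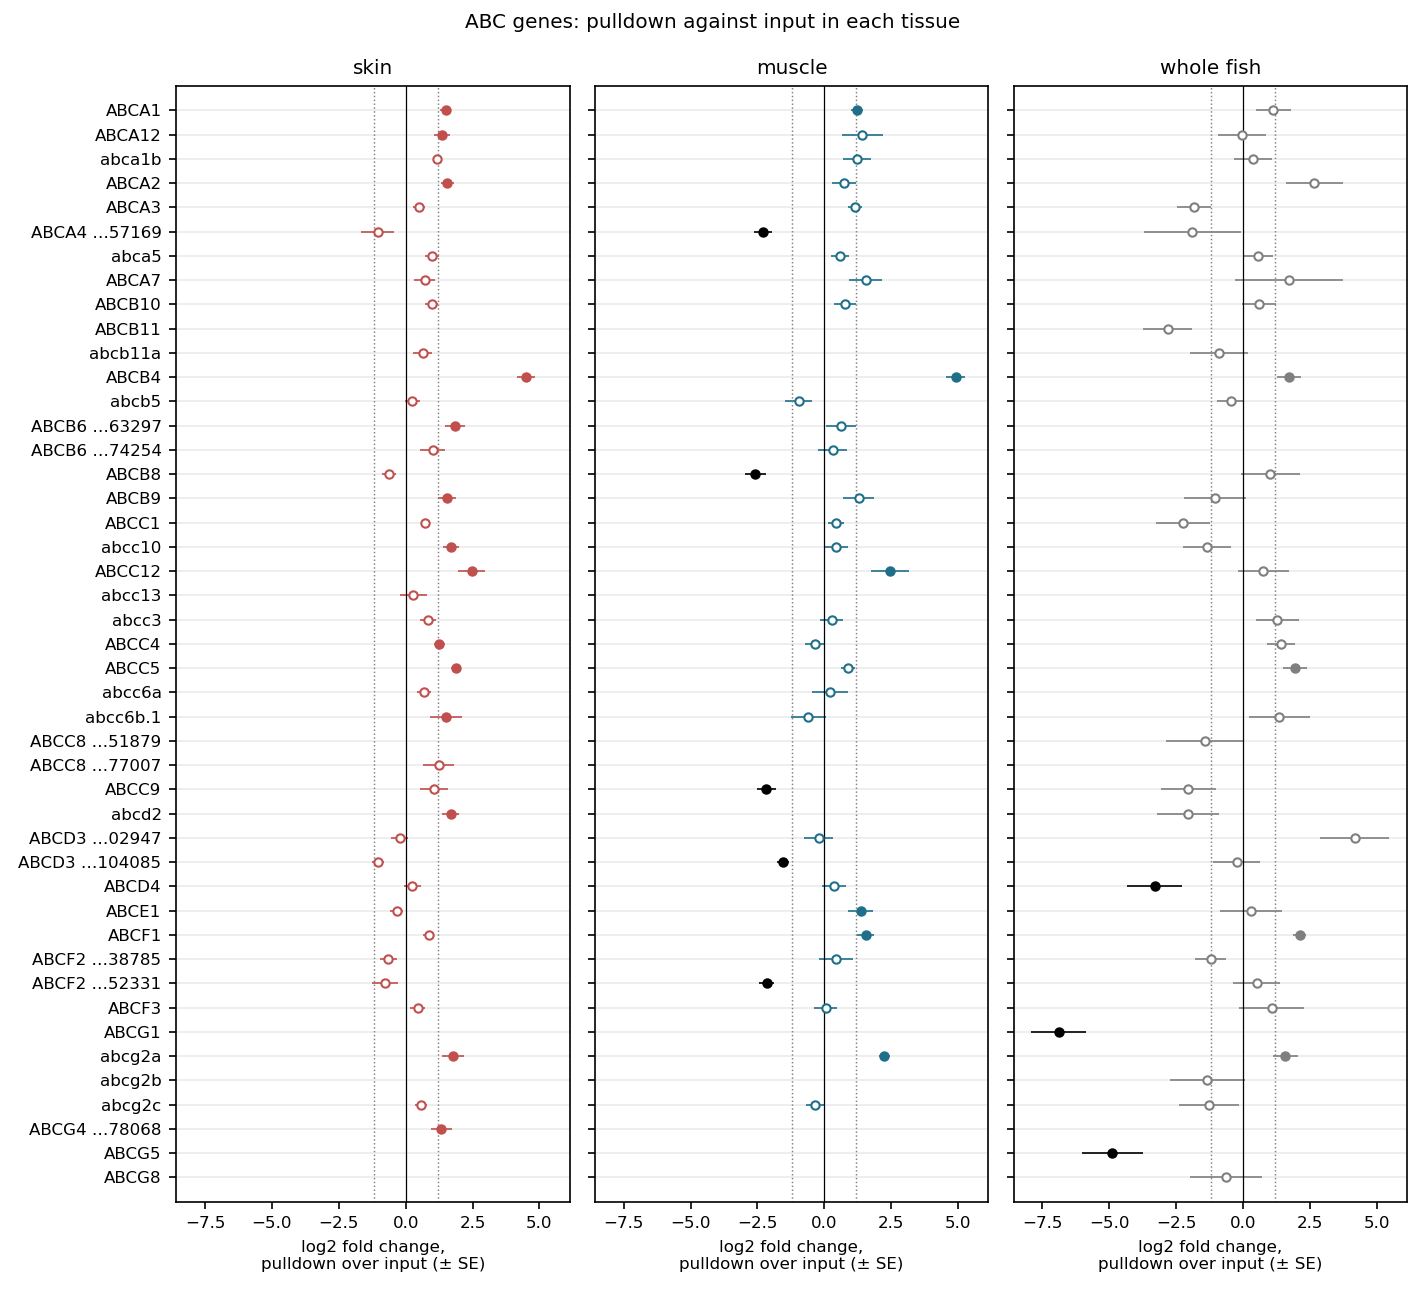
Log2 fold change (x axis, ± SE, 3 pulldown against 3 input libraries) of 45 tested members (y axis) in skin, muscle and whole fish; filled coloured points were called enriched, black points depleted, open points neither, blank rows were not tested and dotted lines mark 1.2 and -1.2. ABCB4 lies at 4.5 in skin and 4.91 in muscle, right of every other member in these tissues, and the whole fish points have the widest errors; the point of ABCG1 rests on a pulldown with 0 counts and depends on the fit's prior count.

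Multidrug efflux genes contained the member with the highest log2 fold change in skin and in muscle. ABCB4 (ENSDARG00000010936), whose zebrafish protein is known to pump out toxins as mammalian P-glycoprotein does, was at 20.2, 25.3 and 33.0 CPM in the skin pulldowns and 1.80, 0.83 and 0.94 CPM in the skin inputs. In muscle it was at 52.1, 58.7 and 84.1 CPM in the pulldowns and 1.49, 1.92 and 3.08 CPM in the inputs. Whole fish levels were 89.9, 85.1 and 77.5 CPM in the pulldowns and 27.5, 37.7 and 12.1 CPM in the inputs. Every pulldown lay above every input of its tissue. ABCB4 was 22.6-fold higher in the skin pulldown (log2 fold change 4.5 ± 0.34, adjusted p = 4.5e-06), 30.03-fold in muscle (4.91 ± 0.35, adjusted p = 4.9e-06) and 3.27-fold in the whole fish (1.71 ± 0.45, adjusted p = 0.034). The whole fish call was lost when any of the 6 libraries was left out (1.33 to 2.05, adjusted p 0.057 to 0.18).

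abcg2a (ENSDARG00000100075), a copy of the drug exporter known in mammals as breast cancer resistance protein, was with ABCB4 the only member called enriched in all 3 tissues. The share of all genes enriched in all 3 was not computed. Its pulldowns were at 14.2, 28.4 and 21.0 CPM in skin, 39.6, 41.8 and 44.2 CPM in muscle and 27.0, 22.2 and 31.3 CPM in the whole fish. Its inputs were at 2.90, 10.1 and 5.35 CPM in skin, 9.61, 8.58 and 8.18 CPM in muscle and 8.96, 11.8 and 5.99 CPM in the whole fish. Pulldown and input did not overlap in any tissue, and replicate 2 was the highest of its fraction in skin in both. The log2 fold change was 1.77 ± 0.40 in skin (adjusted p = 0.0031), 2.25 ± 0.21 in muscle (adjusted p = 1.6e-05) and 1.59 ± 0.46 in the whole fish (adjusted p = 0.046). The whole fish call was lost with the replicate number as a block (1.63, adjusted p = 0.15) and without any library but pulldown replicate 2 (1.30 to 1.81 over the 6 fits).

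The other abcg2 copies were not called in any tissue, and they were not tested against abcg2a. abcg2c had 9.78, 10.5 and 10.3 CPM in the skin pulldown and 6.39, 7.47 and 6.75 CPM in its input, a log2 fold change of 0.57 ± 0.23 that did not reach the minimum, and -0.34 ± 0.34 in muscle. abcg2b was tested in the whole fish alone (-1.33 ± 1.41, adjusted p = 0.51), and abcg2d had too few counts in every tissue.

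**Figure D2:**
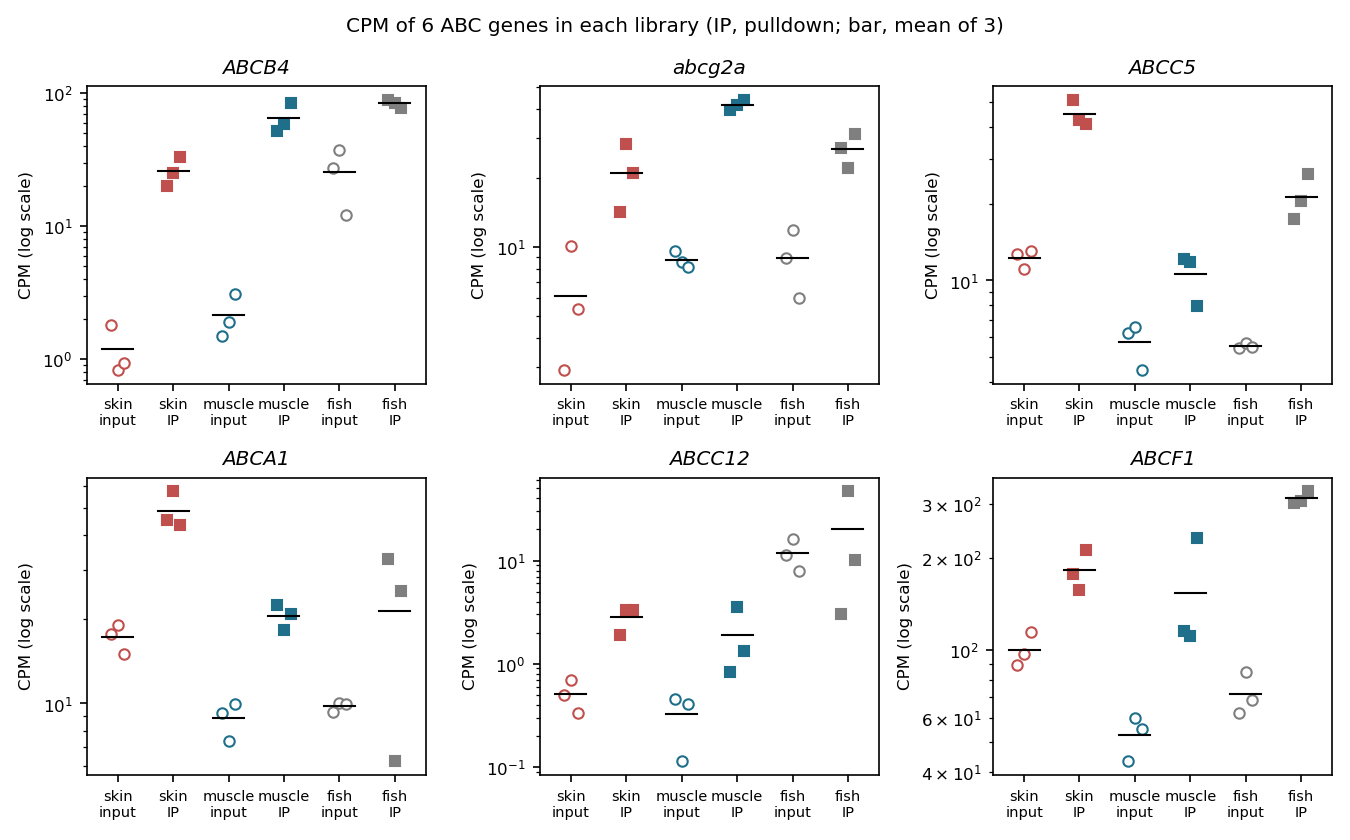
CPM in each library (y axis, log scale, TMM-scaled within a tissue) for 6 members; open circles are inputs, filled squares pulldowns (IP), and bars the mean of 3. Pulldowns of ABCB4, abcg2a, ABCC5 and ABCF1 lie above the inputs in all 3 tissues, while the whole fish pulldowns of ABCA1 and ABCC12 overlap their inputs.

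Subfamily C holds the multidrug resistance proteins, which are organic anion exporters, and also the sulfonylurea receptors ABCC8 and ABCC9, which regulate channels. Of its tested members, 5 of 11 were enriched in skin, 1 of 9 in muscle and 1 of 9 in the whole fish. The shares of all genes were 21.5, 22.8 and 11.3%. ABCC5, an exporter of cyclic nucleotides and other anions, was at 51.2, 42.7 and 41.2 CPM in the skin pulldowns and 12.7, 11.1 and 13.0 CPM in the inputs. Its whole fish pulldowns were at 17.4, 20.4 and 26.1 CPM and the inputs at 5.42, 5.67 and 5.49 CPM. Pulldowns and inputs were apart in both, and the log2 fold changes were 1.87 ± 0.19 (adjusted p = 2.2e-05) and 1.95 ± 0.46 (adjusted p = 0.022). In muscle, the pulldowns at 12.2, 11.8 and 7.93 CPM also lay above the inputs at 6.24, 6.55 and 4.46 CPM, but at 0.89 ± 0.27 the difference stayed under the minimum. The whole fish call of ABCC5 was lost with the replicate block (1.93, adjusted p = 0.11) and without any 1 of the 3 inputs (1.75 to 1.93, adjusted p 0.12 to 0.20).

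ABCC12 was enriched in both organs. Its skin pulldowns were at 1.89, 3.32 and 3.30 CPM against 0.50, 0.69 and 0.33 CPM in the inputs, and its muscle pulldowns at 0.83, 3.52 and 1.34 CPM against 0.455, 0.11 and 0.41 CPM. The fractions did not overlap, though muscle pulldown replicate 2 was far above the other muscle pulldowns. Log2 fold changes were 2.46 ± 0.49 in skin (adjusted p = 0.0014) and 2.45 ± 0.71 in muscle (adjusted p = 0.013), the latter no longer called without pulldown replicate 2 (1.68, adjusted p = 0.069). In the whole fish, pulldowns at 3.02, 47.2 and 10.2 CPM overlapped inputs at 11.3, 16.3 and 7.97 CPM.

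ABCC4, which exports cyclic AMP and prostaglandins, was at 25.1, 31.3 and 25.8 CPM in the skin pulldowns and 10.1, 13.2 and 11.2 CPM in the inputs, with a log2 fold change of 1.25 ± 0.21 (adjusted p = 0.00043). It sat close to the minimum fold and fell below it without skin input replicate 1 (1.13), input replicate 3 (1.2) or pulldown replicate 2 (1.14). abcc10 was enriched in skin at 1.69 ± 0.29 (adjusted p = 0.00062), but was not called in one joint fit of the tissues (1.67). abcc6b.1, a copy of the gene that in humans restrains tissue calcification, was called at 1.5 ± 0.59 (adjusted p = 0.044), although its skin pulldowns at 1.46, 3.17 and 5.46 CPM overlapped its inputs at 2.10, 0.55 and 1.00 CPM. That call was lost without input replicate 2 or 3 or pulldown replicate 2 or 3 (0.90 to 1.55). ABCC1, abcc3 and abcc6a were at 0.74, 0.84 and 0.68 in skin, with adjusted p-values under 0.05 but under the minimum fold. Over the multidrug efflux group of 13 members from subfamilies B, C and G, 5 of 10 tested were enriched in skin, 2 of 10 in muscle and 3 of 10 in the whole fish, beside the same shares of all genes, and none was depleted at this threshold, where 18.2, 21.0 and 15.5% of all genes were.

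Among the exporters of cholesterol and phospholipid, ABCA1, which loads lipid onto apolipoprotein A-I, was enriched in both organs. Its skin pulldowns were at 45.1, 57.4 and 43.5 CPM and its inputs at 17.7, 19.0 and 15 CPM. Its muscle pulldowns were at 22.5, 18.3 and 20.9 CPM and its inputs at 9.22, 7.34 and 9.97 CPM. The fractions did not overlap in either organ, and the log2 fold changes were 1.5 ± 0.20 (adjusted p = 0.00012) and 1.21 ± 0.22 (adjusted p = 0.0011). The muscle value lay on the minimum and was under it without input replicate 2 (1.11) or pulldown replicate 3 (1.18). In the whole fish, pulldowns at 32.8, 6.20 and 25.2 CPM overlapped inputs at 9.33, 10.0 and 9.95 CPM (1.13 ± 0.65, adjusted p = 0.27).

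The second copy, abca1b, was just under the minimum in skin, with pulldowns at 31.9, 35.5 and 31.7 CPM, inputs at 15.8, 13.6 and 14.1 CPM and a log2 fold change of 1.19 ± 0.18 (adjusted p = 0.0003). In muscle abca1b was at 1.21 ± 0.51 (adjusted p = 0.064) and was called with the replicate block (1.25), as were ABCA7, ABCA12 and ABCB9 (1.53, 1.40 and 1.21). These calls brought the enriched members in muscle to 10, in a fit that called 23.5% of all genes. ABCG4 ENSDARG00000078068, a sterol transporter, was enriched in skin at 1.33 ± 0.39 (adjusted p = 0.013) from pulldowns at 2.92, 3.32 and 5.15 CPM and inputs at 1.90, 1.25 and 1.40 CPM, and the call was lost without input replicate 2 or 3 or pulldown replicate 3 (0.99 to 1.25).

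Among the lipid transporters of subfamily A with other known tasks, ABCA2 and ABCA12 were enriched in skin, and ABCA3 (0.50), abca5 (0.98) and ABCA4 ENSDARG00000057169 (-1.05) were not called there. ABCA2, known for lipid handling in the brain, was at 10.9, 15.5 and 14.7 CPM against 4.60, 4.98 and 4.34 CPM in the inputs (1.56 ± 0.25, adjusted p = 0.00034). It was not called in one joint fit of the tissues (1.53). ABCA12, which in mammals fills the lipid granules of keratinocytes, was at 32.4, 22.0 and 51.5 CPM against 15.7, 11.4 and 14.3 CPM (1.36 ± 0.29, adjusted p = 0.0024). Pulldown replicate 3 was the highest, and without it ABCA12 was at 0.93, or at 1.2, just under the minimum, without input replicate 2. In the same libraries, a list of 6 epidermis and pigment cell genes summed to 2463 to 3997 CPM in the pulldowns and 16562 to 32256 CPM in the inputs. Of its 5 tested genes, 3 were depleted and 0 enriched (0 also at an unadjusted one-sided p under 0.05 in edgeR), beside 18.2 and 21.5% of all genes. The tested genes without a call were TP63 (-0.33 ± 0.23) and pmela (-0.98 ± 0.44). Other lists held genes enriched in the skin pulldown. Of 5 tested heart muscle genes, 3 were enriched and 0 depleted. Of 5 muscle fibre genes, 1 was enriched and 3 depleted. Of 10 mural cell and fibroblast genes, 1 was enriched and 3 depleted. Lists of leukocyte, erythrocyte, hepatocyte and brain genes had 0 enriched. The part of these cell types in the level of ABCA12 was not tested.

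In the peroxisome, ABCD proteins import very long fatty acids. abcd2 was at 11.5, 11.4 and 10.5 CPM in the skin pulldowns and 4.50, 2.01 and 3.94 CPM in the inputs, a log2 fold change of 1.68 ± 0.31 (adjusted p = 0.00096). Its call was lost in one joint fit of the tissues (1.64). ABCD3 ENSDARG00000104085 went the other way: in muscle its pulldowns were at 7.09, 6.97 and 8.37 CPM and its inputs at 20.1, 18.7 and 26.0 CPM, all inputs being higher, at -1.53 ± 0.23 (adjusted p = 0.00033), a direction that flipped to 0.19 when libraries were scaled by size alone. It was at -1.03 ± 0.22 in skin. The copy ABCD3 ENSDARG00000002947 did not pass the test in any tissue (skin -0.22, muscle -0.21, whole fish 4.18 ± 1.28 with adjusted p = 0.057).

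The 5 mitochondrial members, which serve heme and iron-sulfur metabolism, were not called in 1 direction. ABCB6 ENSDARG00000063297, a porphyrin transporter, was enriched in skin, with pulldowns at 3.78, 6.56 and 4.07 CPM, inputs at 1.40, 1.11 and 1.47 CPM and a log2 fold change of 1.86 ± 0.38 (adjusted p = 0.0017). That call was lost in one joint fit of the tissues (1.81). ABCB8, of the inner mitochondrial membrane, was depleted in muscle, with pulldowns at 1.85, 1.45 and 1.07 CPM and inputs at 5.07, 12.2 and 9.24 CPM. No pulldown reached an input, and the log2 fold change was -2.58 ± 0.39 (adjusted p = 0.00033). ABCB10, which aids heme synthesis, was at 0.98 in skin and 0.79 in muscle and was not called in any tissue. ABCB9, a peptide transporter of the lysosome, was enriched in skin at 1.55 ± 0.33 (adjusted p = 0.0022), but not in one joint fit of the tissues (1.52).

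**Figure D3:**
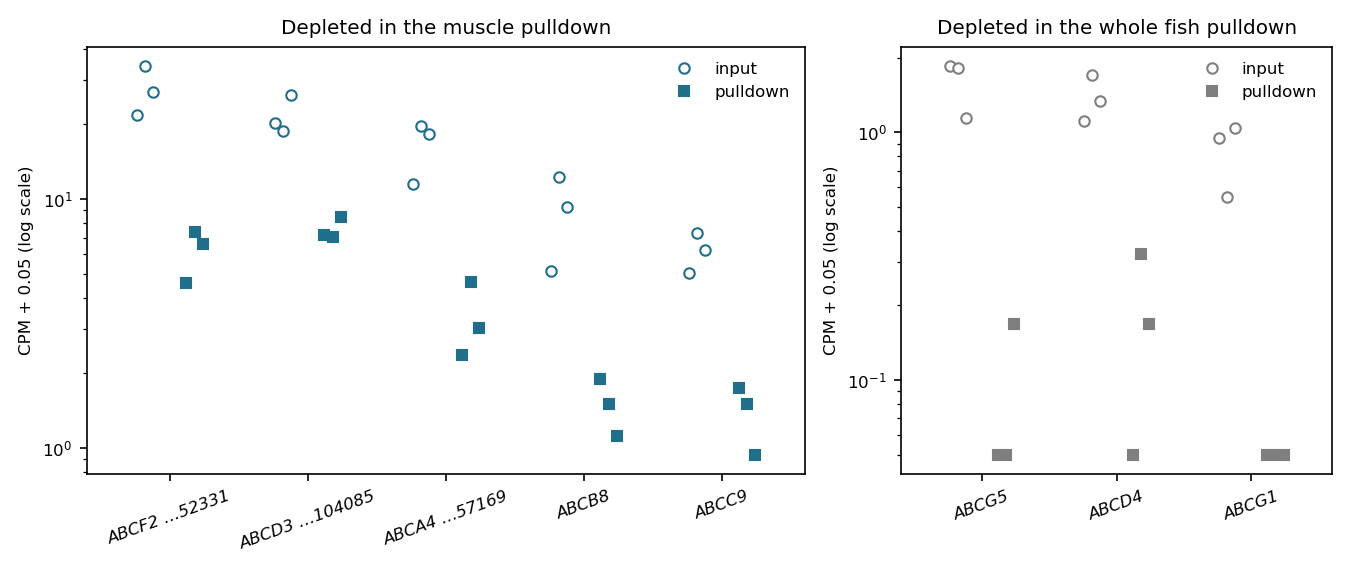
CPM plus 0.05 (y axis, log scale) in each input (open circles) and pulldown (filled squares) for the 5 members depleted in muscle and the 3 depleted in the whole fish (x axis). No pulldown overlaps an input, and the whole fish values are all below 2 CPM.

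Of the other members depleted in muscle, ABCC9 encodes the sulfonylurea receptor of muscle and vascular smooth muscle, a regulatory subunit of ATP-sensitive potassium channels. It was at 1.69, 1.45 and 0.89 CPM in the pulldowns and 5.0, 7.22 and 6.16 CPM in the inputs (-2.17 ± 0.35, adjusted p = 0.00051). kcnj11, which encodes a pore of such channels, was also depleted in muscle, at -4.48 ± 0.50 (adjusted p = 5.4e-05). The pore gene kcnj11l was enriched there at 2.51 ± 0.88 (adjusted p = 0.031), from mean levels of 1.51 and 0.25 CPM. KCNJ8, a further pore gene, had too few counts to be tested in any tissue. In skin, kcnj11 was depleted (-1.23 ± 0.48), whereas ABCC9 was at 1.06 and not called. ABCA4 ENSDARG00000057169, a copy of the retinoid transporter of photoreceptors, was at 2.32, 4.61 and 2.98 CPM in the muscle pulldowns and 11.4, 19.6 and 18.2 CPM in the inputs (-2.30 ± 0.33, adjusted p = 0.00025). ABCF2 ENSDARG00000052331 was at 4.57, 7.29 and 6.55 CPM in the pulldowns and 21.6, 34.0 and 26.7 CPM in the inputs (-2.16 ± 0.27, adjusted p = 0.00011), while its copy ENSDARG00000038785 was at 0.44 ± 0.62. All 5 depleted members kept their calls in every fit that left out 1 muscle library and with the replicate block. In one joint fit of the tissues, ABCA4 ENSDARG00000057169 (-2.36) and ABCD3 ENSDARG00000104085 (-1.59) lost theirs, and none was called after scaling by library size alone.

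In the same muscle libraries, a list of muscle fibre genes summed to 7112 to 9554 CPM in the pulldowns and 97422 to 144265 CPM in the inputs, with 4 of 5 tested genes depleted. A list of mural cell and fibroblast genes had 6 of 10 depleted and 2 enriched, beside 21.0 and 22.8% of all genes. The enriched were RGS5 (3.44 ± 0.45) and TAGLN ENSDARG00000033466 (2.82 ± 0.43). PDGFRB (-1.03 ± 0.25) and NOTCH3 (-0.88 ± 0.24) were lower in the pulldown but under the minimum fold. The depleted included acta2 (-3.31 ± 0.44) and TAGLN ENSDARG00000045408 (-1.95 ± 0.56). The part of these cell types in the levels of ABCC9, ABCB8 and the other depleted members was not tested.

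Members without a membrane part act in translation. ABCF1, known to bind initiation factors and ribosomes, was at 178, 157 and 213 CPM in the skin pulldowns and 89.2, 96.8 and 115 CPM in the inputs (0.86 ± 0.21, under the minimum). In muscle it was at 116, 112 and 233 CPM in the pulldowns and 43.2, 60.2 and 55.1 CPM in the inputs (1.54 ± 0.33, adjusted p = 0.0026), and at 1.1 without pulldown replicate 3. The whole fish pulldowns had 302, 307 and 332 CPM against 62.4, 84.8 and 68.7 CPM, or 4.36-fold higher (2.12 ± 0.25, adjusted p = 0.0013). This whole fish call held with the replicate block and in all 6 fits without a library (1.85 to 2.23), but not after scaling by library size (1.21).

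ABCE1, which splits ribosomes at the end of translation, was called enriched in muscle at 1.36 ± 0.46 (adjusted p = 0.027), with pulldowns at 26.3, 13.7 and 51.6 CPM that overlapped the inputs at 11.4, 7.22 and 16.9 CPM. Replicate 3 was the highest and replicate 2 the lowest in both fractions. Within replicates 1 to 3, the log2 ratios of pulldown to input were 1.17, 0.88 and 1.59, with 0.5 CPM added. ABCE1 kept its call with the replicate block in edgeR. DESeq2 with that block (1.18) and one joint fit of the tissues (1.31) did not call it. The call was lost without pulldown replicate 3 (0.73), input replicate 1 (1.32) or input replicate 2 (1.13). In skin ABCE1 was at -0.33 ± 0.25.

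The 3 members depleted in the whole fish had few counts. ABCG5, which pairs with ABCG8 to export sterols in liver and gut of mammals, had 0, 0 and 2 counts in the pulldowns and 112 counts over the inputs, for an input level 31.5 times the pulldown level (95% counting interval 8.51 to 263). ABCG1, another sterol exporter, had 0 counts in every pulldown and 55 over the inputs, and was at least 10.3-fold lower in the pulldown when set against a floor of 3 counts over the group. ABCD4, which moves cobalamin out of the lysosome, was at 0, 0.27 and 0.12 CPM in the pulldowns and 1.06, 1.65 and 1.29 CPM in the inputs (-3.31 ± 1.02, adjusted p = 0.046). Adjusted p-values were 0.018 for ABCG5 and 0.011 for ABCG1, and with the replicate block none of the 3 was called (adjusted p 0.084 to 0.14). Leaving out an input also lost ABCG5 (adjusted p 0.058 to 0.064) and ABCD4 (0.11 to 0.14), the latter also without pulldown replicate 3, while ABCG1 kept its call.

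ABCG8 itself was at 2.93, 0 and 0.95 CPM in the whole fish pulldowns and 1.83, 2.11 and 2.13 CPM in the inputs, so the fractions overlapped (-0.64 ± 1.34). ABCB11, the bile salt export pump of the liver, was at 1.43, 2.01 and 0.30 CPM in the pulldowns and 12.3, 8.46 and 5.59 CPM in the inputs, without overlap, and just missed the call (-2.82 ± 0.91, adjusted p = 0.053). Neither gene reached the count filter in skin or muscle. In the whole fish libraries, 4 hepatocyte genes summed to 793 to 1972 CPM in the pulldowns and 5112 to 11786 CPM in the inputs, and 3 of the 4 were depleted; in skin and muscle their sum was 5.02 CPM or less. Their part in the whole fish values of ABCG5, ABCG8 and ABCB11 was not tested.

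ABCA2, ABCD3 ENSDARG00000002947 and ABCC12 spread widely among the whole fish pulldowns: ABCA2 was at 29.1, 8.39 and 1.48 CPM there and at 1.76 to 2.28 CPM in the inputs (2.67 ± 1.06, adjusted p = 0.12). They were not called by edgeR. DESeq2 called 7 members enriched and 7 depleted in the whole fish, beside 15.8 and 24.3% of all genes, with ABCA2 and ABCD3 ENSDARG00000002947 among the enriched.

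The members without a call in any tissue included abcb5, a relative of the multidrug efflux pumps. It was at 575, 416 and 320 CPM in the skin pulldowns and 483, 316 and 304 CPM in the inputs, and these overlapped (0.25 ± 0.29, adjusted p = 0.46). In muscle it was at 0.87 to 2.87 CPM in the pulldowns and 2.14 to 5.20 CPM in the inputs (-0.95 ± 0.50). ABCA3, known for surfactant lipid in the mammalian lung, was at 1.14 ± 0.27 in muscle (adjusted p = 0.0041), just under the minimum fold. The 4 members tested in no tissue were ABCA4 ENSDARG00000062661, abcc6b.2, abcg2d and ABCG4 ENSDARG00000061047. The first of these had 32 counts over the muscle pulldowns and 1 over the inputs, a ratio of 15.5 with a 95% counting interval of 2.59 to 632; these intervals and floors cover counting error only.

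To ask whether enrichment itself differed between the organs, the ratio of pulldown to input in skin was compared with that in muscle in a fit of their 12 libraries, two-sided. A member is called more enriched in the organ with the higher ratio, even where its pulldown is not above its input. Of 43 tested members, 4 (9.30%) were more enriched in skin, where 11.4% of 18669 genes were, and 0 more enriched in muscle, where 12.4% of genes were. At an unadjusted p under 0.05 edgeR gave 11 and 1 members, beside 19.6 and 17.3% of all genes, and DESeq2 called 7 and 1, beside 14.8 and 12.9%. With a block for each lysate, shared by a pulldown and an input of the same number, edgeR called 8 and 2, beside 19.5 and 17.6% of all genes; abcb5 (1.25), ABCF2 ENSDARG00000052331 (1.56), ABCA4 ENSDARG00000057169 (1.36) and ABCC8 ENSDARG00000051879 (3.52, from 0 to 35 counts a library) were then also more enriched in skin, and ABCE1 (-1.53) and ABCF2 ENSDARG00000038785 (-0.76) in muscle. ABCC9 differed most, by 3.27 ± 0.63 on the log2 scale (adjusted p = 0.0021). Its log2 ratios of pulldown to input were -0.07, 0.98 and 1.31 in the skin replicates and -1.33, -1.99 and -2.26 in the muscle replicates. The ratios are on the log2 scale with 0.5 CPM added, and those of the organs were apart.

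ABCB8 differed by 2.00 ± 0.45 (adjusted p = 0.0055), with ratios of -0.73, -0.42 and -0.55 in skin and -1.24, -2.70 and -2.63 in muscle. Its pulldown was thus below its input in both organs, less so in skin. A difference of this kind can lie in the pulldowns or in the inputs. In the direct comparison of pulldowns below, skin minus muscle was 0.15 ± 0.99 for ABCC9 (adjusted p = 0.95). For ABCB8 it was 0.58 ± 0.94 (adjusted p = 0.76), so neither pulldown level was called different. ABCC4 differed by 1.65 ± 0.37 (adjusted p = 0.0056), with ratios of 1.28, 1.21 and 1.17 in skin and -0.11, -0.75 and -0.14 in muscle. ABCC5 differed by 1.03 ± 0.32 (adjusted p = 0.030), with ratios of 1.97, 1.89 and 1.62 in skin and 0.91, 0.81 and 0.77 in muscle. The replicates of the organs did not overlap for any of the 4, and 18 of the 43 tested members were apart in this way. Every skin ratio was higher for 16 members (37.2%), against 27.6% of all tested genes, and every muscle ratio for 2 (4.65%), against 25.6%. The call of ABCC5 was lost in 7 of the 12 fits without a library (0.80 to 0.95 in those), and those of ABCC9, ABCB8 and ABCC4 were kept in all 12. After scaling by library size, which shifted the median difference of all genes from 0.24 to -0.68, ABCC9 alone stayed called (2.28), and in a joint fit with the whole fish libraries 0 were called, at nearly the same differences (3.26 for ABCC9, 1.99 for ABCB8, 1.64 for ABCC4 and 1.02 for ABCC5).

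The members enriched in both organs, ABCB4, abcg2a, ABCC12 and ABCA1, had estimated differences of -0.37 ± 0.51, -0.43 ± 0.48, 0.06 ± 0.80 and 0.33 ± 0.29, which did not pass the test (adjusted p 0.44 to 0.97). ABCE1, at -1.65 ± 0.59 (adjusted p = 0.053), was called more enriched in muscle with the replicate block and by DESeq2.

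**Figure D4:**
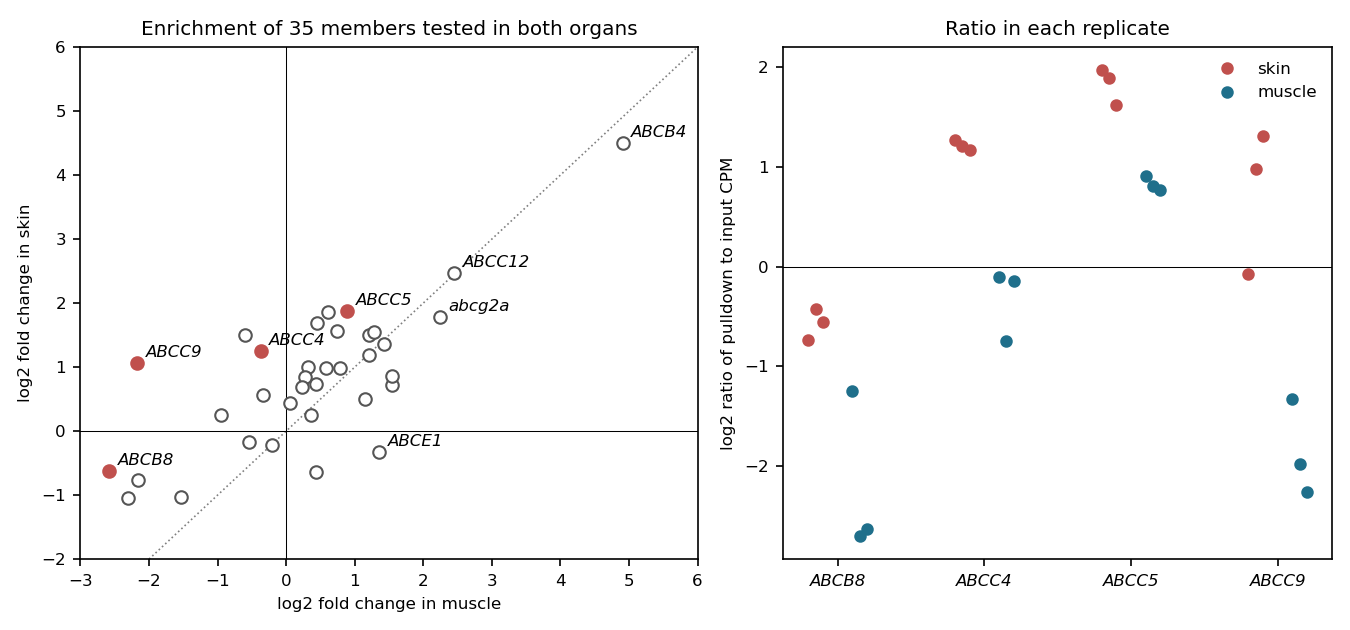
Left, log2 fold change in skin (y axis) against muscle (x axis) for 35 members tested in both; filled points differed between the organs and the dotted line marks equal values. Right, log2 ratio of pulldown to input CPM in each replicate (y axis) of these 4 members (x axis); the skin and muscle points of each do not overlap.

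The pulldowns of the organs were also compared directly, in a fit of the 9 pulldown libraries scaled together. Of 43 tested members, 6 (14.0%) were higher in the skin pulldown, where 7.43% of 18544 genes were, and 2 (4.65%) higher in the muscle pulldown, where 3.48% of genes were. This comparison holds no input, so it does not separate endothelial RNA from RNA of the organ around it. ABCB4 was at 15.4, 18.9 and 26.3 CPM in skin, 76.5, 87.9 and 127 CPM in muscle and 120 to 137 CPM in the whole fish, and lower in skin than in muscle by a log2 difference of -2.27 ± 0.34 (adjusted p = 0.0046). abcg2a was at 10.8, 21.2 and 16.7 CPM in skin, 58.1, 62.6 and 66.8 CPM in muscle and 31.4 to 49.7 CPM in the whole fish, also lower in skin, by -1.94 ± 0.38 (adjusted p = 0.013). For both drug pumps no skin pulldown reached a muscle pulldown, and on the same scale the 4 endothelial markers summed to 413 to 593 CPM in the skin pulldowns and 2869 to 4821 CPM in the muscle pulldowns; their part in the difference was not tested.

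Higher in the skin pulldown were abcb5 by 6.97 ± 0.61 (adjusted p = 0.00042), ABCC4 by 2.27 ± 0.48 (adjusted p = 0.017), abca1b by 3.28 ± 0.64 (adjusted p = 0.013) and ABCA12 by 3.71 ± 0.88 (adjusted p = 0.025). abcb5 was at 439, 311 and 255 CPM in skin against 4.22, 1.30 and 2.49 CPM in muscle, and its skin input was at a like level, as given above. abcb11a and ABCG4 ENSDARG00000078068, at 5.02 ± 1.34 and 4.76 ± 1.19 (adjusted p = 0.039 and 0.031), were no longer called with the replicate block (adjusted p = 0.085 and 0.068). That block ties equal replicate numbers of different tissues, a pairing the labels do not give. The calls of ABCB4 and abcb5 held in all 9 fits that left out a pulldown; each of the other 6 members was lost in 4 to 6 of them, all without a skin or muscle pulldown. Without the whole fish pulldowns in the fit, 17 members were higher in skin and 4 in muscle, where 27.0 and 21.3% of all 16875 tested genes were.

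**Figure D5:**
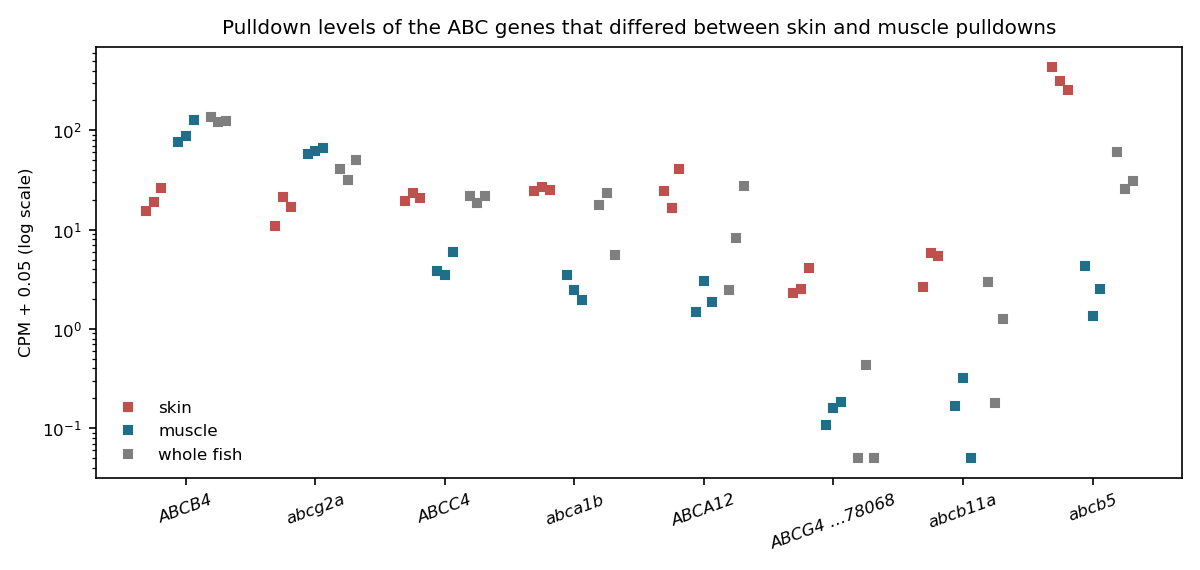
Pulldown level (y axis, CPM plus 0.05, log scale, scaled over 9 pulldowns) in each skin, muscle and whole fish pulldown for the 8 members that differed between skin and muscle pulldowns (x axis). ABCB4 and abcg2a lie higher in muscle, and the other 6 higher in skin, abcb5 by the widest gap.

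Genes tied to the ABC members but outside the symbol rule were counted from a list of 18, of which 15 were found. In skin, 2 of 11 tested were enriched, beside 21.5% of all genes, and 2 were depleted, beside 18.2%. The enriched were the chloride channel CFTR, itself an ABC protein (2.04 ± 0.60, from mean levels of 1.15 and 0.26 CPM), and FECH, the last enzyme of heme synthesis (1.86 ± 0.33). The depleted were kcnj11 (-1.23 ± 0.48) and apoeb (-1.82 ± 0.32). In muscle, 2 of 11 were enriched, beside 22.8% of all genes, and 1 was depleted, beside 21.0%. The enriched were NR1H3, the sterol receptor that induces ABCA1 and ABCG1 in mammals (2.12 ± 0.26), and kcnj11l, and the depleted was kcnj11. Of those tested in the whole fish, 0 of 12 were enriched (1 at an unadjusted one-sided p under 0.05 in edgeR) and 5 depleted, beside 11.3 and 15.5% of all genes. The depleted were FECH (-3.59 ± 0.93) and the lipid carriers apoa1a, apoa1b, apoea and apoeb (-5.45 to -1.59). The peptide transporters of antigen presentation, TAP1, tap2a and tap2t, were not called in any tissue, nor was LMBRD1, the partner of ABCD4. In skin, TAP1, tap2a and tap2t were at -0.81, -0.62 and -1.08, with adjusted p-values under 0.05 but under the minimum fold. Without that minimum, 28.6% of all genes were depleted in skin.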

How the data were processed

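The authors deposited raw read counts per gene from SMART-seq libraries that keep no strand, made with cutadapt trimming and hisat2 alignment to GRCz11; the counting program is not given in the sources used here. Of 36 library columns, 18 were used, and 18 with letters that match no organ's label were not. For skin replicate 2, the column names use a different letter from the other skin columns, and the match was made by elimination among the names. Of 32520 gene IDs, 29201 matched a symbol in a separate list. No batch is given in the labels.

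Counts were tested with edgeR 4.0.16 in R 4.3.3 (filterByExpr, TMM, quasi-likelihood test, Benjamini-Hochberg adjustment over all genes), separately for each tissue, and the script was tested on simulated data. SE was taken from the log2 fold change and the F statistic. DESeq2 1.42.0 was an alternative. The others were scaling by library size, no filter, joint fits, two-sided tests, no minimum fold, the replicate block and leaving out each library. In the difference and pulldown level fits, the replicate block also ties equal numbers of different tissues, which the labels do not pair. DESeq2 with the block, leaving out skin replicate 2, a block per lysate and the pulldown fit without whole fish were chosen after seeing the data. Every member called in a tissue, or in the difference between organs, was named, with the member of highest mean CPM in each subfamily (a choice that takes no account of gene length), except that 2 members are in the counts and not reported individually here; others were chosen after their values were seen. Members and lists were chosen with earlier results of these data known.

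Replicate numbers pair libraries within a tissue: with group means subtracted, r between same-numbered pulldown and input over genes was 0.39 to 0.43 (skin), 0.37 to 0.49 (muscle) and 0.17 to 0.19 (whole fish). Replicates differed by more than counting noise (chi-square per gene 19.4 to 226). Labels call replicates biological without naming fish, so p-values measure the spread between pooled samples.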

Additional observations from a re-analysis of the deposited data

Results flagged for a closer look

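The enrichment of 4 of 43 tested members (9.30%) differed between skin and muscle by a test of the difference itself (edgeR's quasi-likelihood test of the interaction, two-sided, Benjamini-Hochberg adjusted). All 4 had the higher ratio in skin, as did 11.4% of all genes by this test. The log2 difference of skin minus muscle was 3.27 for ABCC9, 2.00 for ABCB8, 1.65 for ABCC4 and 1.03 for ABCC5, with adjusted p-values of 0.0021, 0.0055, 0.0056 and 0.030. In each of the 4, every skin replicate had a higher ratio of pulldown to input than every muscle replicate. These 4 are among the 16 of 43 tested members (37.2%) for which this held, beside 27.6% of all tested genes. The ratios come from the same libraries as the test, so they are not separate support for it. ABCB8 was below its input in both organs. In the fit of the 9 pulldown libraries, ABCC4 alone of the 4 was called higher in skin (2.27, edgeR adjusted p = 0.017). ABCC9, ABCB8 and ABCC5 were not (0.15, 0.58 and 1.13, adjusted p = 0.95, 0.76 and 0.094). Without the whole fish pulldowns in that fit, ABCC5 was called higher in skin too (1.18 ± 0.25, edgeR adjusted p = 0.0022), as were 27.0% of all genes. ABCC9 and ABCB8 were still not called (0.19 and 0.63, adjusted p = 0.79 and 0.22). DESeq2 on the 9 pulldowns also called ABCC5 (1.22), where 15.4% of all genes were higher in skin. In the test of the difference, ABCC5 lost its call in 7 of the 12 fits without a library. Scaling by library size left ABCC9 alone called. A joint fit with the whole fish libraries left no call, at nearly the same differences.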

How the results depend on the processing

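Each percentage here is the share of all tested genes called in the same fit. With library size scaling, enriched members numbered 30 (skin, 41.4%), 27 (muscle, 62.3%) and 0 (whole fish, 3.48%). Depleted were 0 in muscle (3.27%) and 7 in the whole fish (23.9%). More enriched were 1 in skin (1.79%) and 4 in muscle (27.5%), and 1 pulldown level was higher in muscle (0.803%). ABCD3 ENSDARG00000104085 in muscle turned to 0.19. One joint fit gave 7 enriched in skin (10.1%), 3 depleted in muscle (12.2%) and 13 depleted in the whole fish (33.4%). Among the members that lost their skin call in it were ABCA2, ABCA12, ABCB6 ENSDARG00000063297, ABCB9, abcc10, abcc6b.1, abcd2 and ABCG4 ENSDARG00000078068. The 7 in skin included ABCA4 ENSDARG00000062661, which the main fit did not test. A joint fit with the whole fish libraries gave 0 members more enriched in skin (0.915%). DESeq2 gave 7 enriched (15.8%) and 7 depleted (24.3%) in the whole fish. It also gave 7 more enriched in skin (14.8%) and 1 in muscle (12.9%), and 10 pulldown levels higher in skin (15.4%). No minimum fold change gave 23 enriched (30.7%) and 1 depleted (28.6%) in skin. Without a filter on low counts, 1 was enriched in the whole fish (5.49%) and 1 more enriched in muscle (8.74%). The replicate block gave 10 enriched in muscle (23.5%), and 2 enriched (7.91%) and 0 depleted (5.37%) in the whole fish. In the difference it gave 6 more enriched in skin (14.6%) and 1 in muscle (14.5%). For skin pulldown against input it gave 15 enriched (22.0%), as without it. DESeq2 with the replicate block gave 7 depleted in the whole fish (31.1%). A block per lysate gave 8 more enriched in skin (19.5%) and 2 in muscle (17.6%). Without the whole fish pulldowns, 17 pulldown levels were higher in skin (27.0%) and 4 in muscle (21.3%). Leaving out 1 library in turn gave 11 to 15 enriched (18.2 to 20.7%) and 0 to 0 depleted (17.0 to 19.1%) in skin. In muscle it gave 4 to 7 (20.2 to 22.5%) and 5 to 5 (17.7 to 20.4%). In the whole fish it gave 1 to 4 (4.52 to 13.2%) and 1 to 9 (8.73 to 26.2%), and 1 and 1 in the fits without any 1 input. More enriched were 3 to 5 in skin (5.74 to 11.8%) and 0 to 1 in muscle (10.3 to 12.1%). Pulldown levels were higher in skin for 1 to 9 (1.40 to 13.2%) and in muscle for 1 to 3 (0.702 to 7.34%). Without skin replicate 2, 12 members were enriched in skin (18.6%) and 4 differed towards skin (6.72%). Values of called members over the settings that kept all libraries held their call in 268 cases, lost it in 51 and reversed in 1. They held it in 23 and lost it in 4 where several libraries were left out, and held it in 232 and lost it in 86 where 1 was. Among the settings that kept all libraries, no minimum fold change and the two-sided tests reuse the main fit. Without a minimum fold change no call within a tissue could be lost, so those cases held by design. Depth limits the whole fish depletions, which rest on 0 to 2 counts in the pulldowns of ABCG1 and ABCG5.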
